A study of Sus scrofa with 4 samples.

Results

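RNA sequencing libraries of pig muscle were compared across a pair of title endings: HA1 and MA1, titled with the suffix 1, against HA and MA, titled without it. HA and HA1 come from Hampshire pigs and MA and MA1 from Mali pigs, so each side holds 1 library of each breed, and the comparison uses 4 of the 4 libraries in the study. The muscle was taken by biopsy, and the labels name no treatment, age, sex or anatomical site. They give no meaning for the suffix. Nothing in them tells separate animals from repeat libraries of the same animal, so each p-value reflects the scatter of these 4 libraries, which may be technical. In the test without a breed term, that scatter is the difference between the Hampshire and the Mali library of each side. It thus includes any breed difference. The study was designed to compare the breeds, which differ in muscularity. The split was chosen by the library titles, after the first principal component of these same log2 FPKM values had separated the titles, so its differences are a description of these 4 libraries, and the counts and p-values below support nothing about the suffix. The question is which fibre, mitochondrial, blood and stress genes differed across the pairs.

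Expression was given as FPKM, fragments scaled to gene length and to the number of fragments mapped in the library. Of 29692 gene symbols, 10075 had at least 1 FPKM in at least 2 libraries and were compared as log2(FPKM + 1), suffix 1 minus no suffix. The difference was taken within each breed, HA1 minus HA in Hampshire and MA1 minus MA in Mali, and its mean over the breeds is the difference given below unless a breed is named. On this scale the change of a gene with low FPKM is understated.

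Skeletal muscle is built of slow fibres, which are rich in mitochondria and rely on oxidative metabolism, and fast fibres, which rely more on glycolysis and carry their own isoforms of myosin, troponin and calcium pumps. The mix of fibres differs between muscles and within a muscle. A biopsy also holds blood, vessels, connective tissue, fat and nerve, and muscle cells keep transcription factors that mark where in the body they arose. In bulk tissue, fewer cells of a type and less RNA per cell cannot be told apart.

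The sum of FPKM was 988614 in HA, 516463 in MA, 756253 in HA1 and 894809 in MA1, and genes of the mitochondrial genome made up 42.5%, 19.4%, 21.3% and 17.1% of it. Read totals were not used here because the table holds no counts, so the depth is unknown. The lowest FPKM, multiplied by gene span in kilobases, give what about 1 fragment is worth: for spans of 1200 to 2500 bp the 10th percentile of this product differed between libraries by at most 1.21-fold. For spans of 400 to 700 bp it was 1.20 times as high as for the longer spans in HA, 1.15 times in MA, 1.42 times in HA1 and 1.64 times in MA1. Relative to longer genes, the lowest values of short genes were thus worth more in both suffix 1 libraries. The product itself, for 400 to 700 bp, was 0.0585 in HA and 0.0613 in HA1, which were close, and 0.0467 in MA and 0.0744 in MA1. Between HA and MA 10.64% of rows with low values shared 1 narrow ratio, and between HA1 and MA1 5.44% did, against at most 1.80% between libraries of different sides. The part of this difference between the sides in the results on short genes was not tested. The first principal component held 43.1% of the variance. On it HA was at -9.18 and MA at -46.9 on one side, with HA1 at 29.5 and MA1 at 26.6 on the other. The second held 35.7% and separated the breeds, with HA at -27.6 and HA1 at -25.4 against MA at 12.5 and MA1 at 40.6. By Pearson correlation of the log2 values the closest pair was HA with HA1 (0.9378), 1 library of each side. By Spearman rank correlation it was HA with MA (0.9003), both without the suffix. The sides were thus not the only grouping of these libraries.

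Across the pairs PITX1 fell, a non-coding RNA of the signal recognition particle and the protamine gene PRM1 rose, and most other called genes were uncharacterised. In limma with Benjamini-Hochberg adjustment, 12 of 10075 genes had an adjusted p under 0.05, a background of 0.119%, with 6 higher and 6 lower in the suffix 1 libraries (0.0596% each). With breed as a term 264 genes were called (2.62%), 172 higher (1.71%) and 92 lower (0.913%), and all 12 were among them. Only 1 residual degree of freedom remained there, beside 27.4 borrowed from the spread of other genes. The breed term leaves every difference unchanged, so the shared calls are no support. Before adjustment 772 genes (7.66%) had a p under 0.05. Leaving out MA1 left limma with no called gene, against 799 at an unadjusted p under 0.05, and leaving out HA1 left 3, of which 1 was among the 12. Without HA 57 genes were called and without MA 55, with all 12 among them each time. Both suffix 1 libraries lay above both others in 1969 genes (19.5%) and below both in 1847 (18.3%). An exact permutation test of 2 libraries against 2 cannot go below p = 0.333, so single genes are described by library.

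PITX1 encodes a homeobox transcription factor known for specifying hindlimb identity and lies on chromosome 2 (137200424 to 137212500, Sscrofa11.1). It was at 36.5 FPKM in HA and 16.2 in MA, against 0.760 in HA1 and 0.106 in MA1. Both libraries without the suffix expressed it and both with the suffix were below 1 FPKM. The difference was -4.19 with a standard error of 0.47 (limma adjusted p = 0.0394), -4.42 in Hampshire and -3.96 in Mali. PRM1, a protamine that packs DNA in sperm, was listed at 0 in HA and MA and at 4.17 and 5.998 FPKM in HA1 and MA1 (limma adjusted p = 0.0401). It spans 443 bp on chromosome 3, in the range where low values, relative to longer spans, were worth more in the suffix 1 libraries.

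The other 10 called genes carry placeholder names. LOC102723301, annotated as the RNA of the signal recognition particle with a span of 282 bp on chromosome 1, was listed at 0 in both libraries without the suffix and at 18.7 FPKM in HA1 and 31.3 in MA1 (limma adjusted p = 0.0224). The long non-coding RNA LOC102158612 was at 1.39 and 2.07 FPKM in HA and MA and at 39.1 and 74.3 in HA1 and MA1. LOC100153598, annotated as protein coding on chromosome 13, went the other way, from 134 and 61.1 FPKM to 2.74 and 1.63. In all 10 both suffix 1 libraries lay on the same side of both others. The 10 were called on these same values, so this separation adds no support. Of the 12 called genes 5 were long non-coding RNAs, of 267 tested, 4 were protein coding, of 9746 tested, and 2 were transcribed pseudogenes, of 29 tested. With breed as a term, 15.7% of long non-coding RNAs, 41.4% of transcribed pseudogenes and 2.08% of protein-coding genes were called.

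Transcribed pseudogenes as a class were mostly at lower values in the suffix 1 libraries. Of 29 compared, 16 had both suffix 1 libraries below both others and 5 above, and their median difference was -0.80, with -0.81 in Hampshire and -0.88 in Mali, against 0.011 over all genes. Ribosomal RNA was also uneven: RN18S, the RNA of the small ribosomal subunit, was at 30.1 FPKM in HA and 46.6 in MA and at 188 and 222 in HA1 and MA1. Both suffix 1 libraries were the higher ones, with differences of 2.61 in Hampshire and 2.23 in Mali (limma adjusted p = 0.279, and 0.0148 with breed as a term). Ribosomal RNA and pseudogenes resemble other copies in the genome, and reads that fit several copies may have been split between them, so these values are uncertain.

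**Figure D1:**
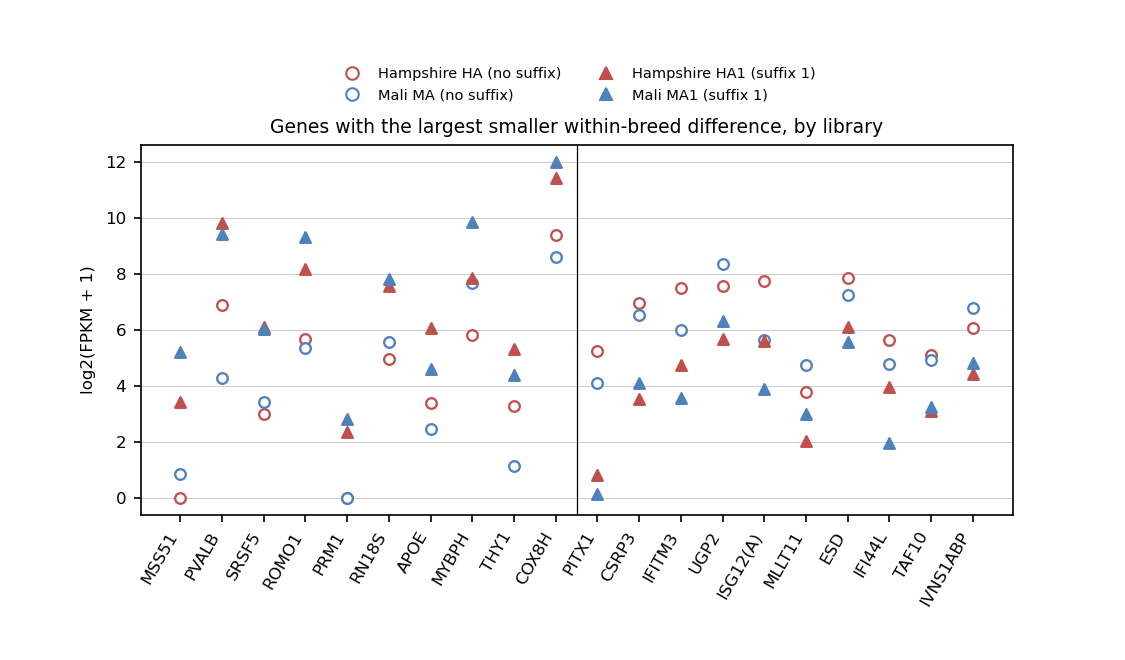
FPKM of the 20 genes with a named symbol and the largest smaller within-breed difference, 10 higher and 10 lower in the suffix 1 libraries; the vertical axis is log2(FPKM + 1), open circles are HA and MA, filled triangles HA1 and MA1, and colour marks the breed. In each gene both triangles lie on the same side of both circles, by which the genes were chosen; PITX1 at the left of the lower set falls from 36.5 and 16.2 FPKM to 0.760 and 0.106.

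Among named genes at higher values in both suffix 1 libraries, the first by the smaller of its within-breed differences was MSS51, a mitochondrial protein of muscle linked to metabolic control. It was at 0 FPKM in HA, 0.830 in MA, 9.87 in HA1 and 36.3 in MA1. Parvalbumin (PVALB), a calcium buffer of fast fibres, was at 118 and 18.6 FPKM without the suffix and at 889 and 685 with it. The splicing factor SRSF5 was at 7.06 and 9.66 FPKM against 67.8 and 65.1. In these genes the suffix 1 libraries stood at least 2.63 on the log2 scale above the library of the same breed. ROMO1, a mitochondrial membrane protein, and COX8H, a muscle isoform of a subunit of cytochrome c oxidase, were at 50.5 and 40.3 and at 672 and 390.2 FPKM without the suffix. With it they were at 285 and 630 and at 2769 and 4068. APOE, a lipid carrier, the cell surface protein THY1, found on fibroblasts and neurons, and MYBPH, a myosin-binding protein, completed the group with PRM1 and RN18S. MYBPH was at 55.3 and 202 FPKM against 232 and 917. None of them other than PRM1 passed adjustment without the breed term, with limma adjusted p of 0.119 for SRSF5, 0.128 for MSS51 and 0.285 for PVALB. With that term the limma adjusted p was 5.42e-04 for SRSF5, 3.91e-08 for MSS51 and 5.45e-04 for PVALB. ROMO1, APOE, THY1, RN18S and PRM1 were also called with it, whereas MYBPH and COX8H were not. The genes were chosen by their within-breed differences, so these calls are no support.

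Among named genes at lower values in both suffix 1 libraries, PITX1 was followed by CSRP3, a muscle LIM protein of the Z-disc and mechanical signalling. CSRP3 was at 122 FPKM in HA and 92.4 in MA, against 10.5 in HA1 and 16.2 in MA1. UGP2, which makes the sugar donor for glycogen synthesis, was at 189 and 323 FPKM against 50.01 and 78.1. Both lay well below in each breed, by 3.42 and 2.44 for CSRP3 and by 1.90 and 2.03 for UGP2. TAF10, a subunit of the general transcription factor TFIID, was at 33.2 and 29.1 FPKM against 7.61 and 8.60. Interferon-induced genes were in this set too. IFITM3, an antiviral membrane protein, was at 178 and 63.0 FPKM against 25.8 and 11.0, ISG12(A) at 213 and 49.4 against 48.0 and 13.95, and IFI44L at 48.4 and 26.3 against 14.5 and 2.91. ESD, MLLT11 and IVNS1ABP completed it, with within-breed differences between -1.97 and -1.63. Besides PITX1 none passed adjustment without the breed term, with limma adjusted p from 0.149 for CSRP3 to 0.647 for ISG12(A). With that term the limma adjusted p was 0.00104 for CSRP3. IFITM3, ISG12(A), IFI44L, MLLT11 and TAF10 were called with it too, whereas UGP2, ESD and IVNS1ABP were not.

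The difference in PITX1 raised the question of other factors that mark position in the body, and a list of 60 HOX, PITX, TBX and related genes was drawn up after these values had been seen. Of the 57 found in the table, 30 passed the filter on low values and 5 were at 0 in every library. Both suffix 1 libraries were higher in 5 of the 30 and lower in 10, and the median difference was -0.15. TBX1, a T-box factor of head and pharyngeal muscle, was at 27.0 and 13.3 FPKM in HA and MA and at 0.719 and 7.44 in HA1 and MA1. It was lower in both suffix 1 libraries, with differences of -4.03 in Hampshire and -0.76 in Mali. IRX5 was at 2.56 and 1.13 FPKM against 0.184 and 0.358.

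The HOX genes, which mark position along the trunk and limb, went in different directions. Of 36 listed in the table, 13 passed the filter, of which 3 were higher without overlap, 3 lower and 7 overlapped. HOXB6 was at 2.01 and 1.58 FPKM in HA and MA and at 0.624 and 0.265 in HA1 and MA1, and HOXB7 at 4.09 and 2.61 against 1.41 and 1.001. HOXA6 was at 0.426 and 1.03 FPKM against 5.70 and 2.27. HOXA11 and HOXA13, the most 5′ genes of their cluster here, were below the filter, at no more than 0.0208 FPKM without the suffix. HOXA11 was at 0.328 and 2.50 FPKM with the suffix and HOXA13 at 0.735 and 1.04. HOXC10, a gene of the lumbar trunk and hindlimb, was at 20.7 and 23.7 FPKM in HA and MA and at 20.5 and 38.5 in HA1 and MA1, so it was present in every library and the sides overlapped. MEOX2, a homeobox factor of the early somite and limb muscle, was at 1.82 and 2.71 FPKM against 9.58 and 5.94. The labels do not say which muscle was sampled, and the part of sampling site in these values cannot be told apart from the suffix.

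**Figure D2:**
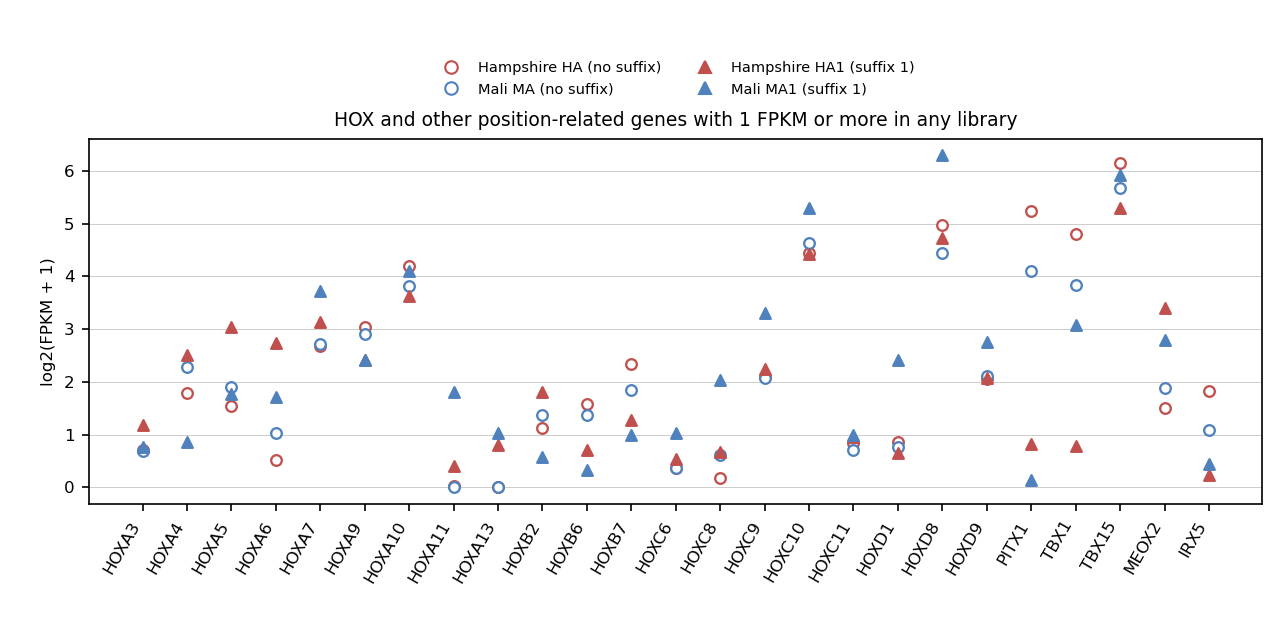
HOX genes with at least 1 FPKM in any library, and the other position-related genes PITX1, TBX1, TBX15, MEOX2 and IRX5; the vertical axis is log2(FPKM + 1), open circles are HA and MA, filled triangles HA1 and MA1, and colour marks the breed. PITX1, TBX1 and IRX5 have both triangles below both circles, HOXA6 and MEOX2 have both above, and HOXC10, HOXD8 and TBX15 overlap.

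In all, 33 lists of fibre, metabolic, tissue and stress genes and 4 lists drawn up later held 648 distinct genes that passed the filter, of 774 in the table. In limma without the breed term 1 of them was called, PITX1, against 0.119% of all genes. Before adjustment 72 had a p under 0.05, against 7.66%, and with breed as a term 35 were called, against 2.62%. Each list is therefore described by its libraries, its median and its count of genes whose sides did not overlap, against 19.5% higher and 18.3% lower over all genes.

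Among the fibre genes the heavy chain MYH4 was at higher values in both suffix 1 libraries. It was called neither without the breed term (limma adjusted p = 0.346) nor with it (limma adjusted p = 0.0736). MYH4, the heavy chain of the fastest fibres (type 2B), was at 423 FPKM in HA, 1588 in MA, 5583 in HA1 and 6006 in MA1. MYH1, the heavy chain of type 2X fibres, was at 3868, 1159, 1403 and 1306 in the same order. The suffix 1 libraries were the high ones for MYH4 and were much alike, whereas for MYH1 HA stood above the other 3. MYH2, of type 2A fibres, was at 566, 80.8, 306 and 365 FPKM, and MYH7, of slow fibres, at 445, 150.2, 441 and 474. For these chains MA was the low library and the sides overlapped.

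As a share of the summed FPKM of these 4 chains, MYH4 made up 7.98% in HA, 53.3% in MA, 72.2% in HA1 and 73.7% in MA1. MYH1 took 73.0% and 38.9% without the suffix and 18.1% and 16.0% with it. Slow MYH7 stayed between 5.04% and 8.40% in all 4 libraries. The ratio of MYH4 to MYH1 was thus 0.109 in HA and 1.37 in MA, and 3.98 and 4.60 in HA1 and MA1, higher in the suffix 1 library of each breed by 36.4-fold and 3.36-fold. MYH1, MYH2 and MYH4 are neighbouring paralogs and reads shared between them may have been split, so their shares are uncertain. The ratio of fast to slow troponin T (TNNT3 to TNNT1) was 12.3 and 17.0 without the suffix and 24.3 and 27.4 with it.

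**Figure D3:**
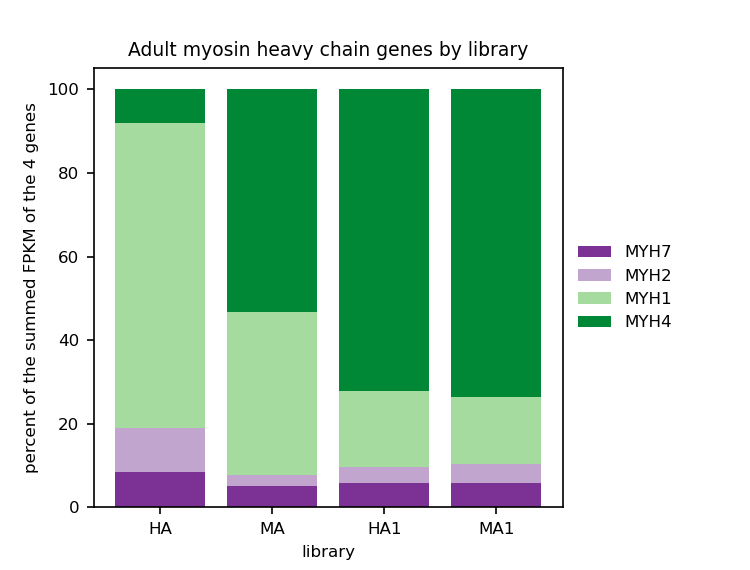
Share of each of 4 adult myosin heavy chain genes in their summed FPKM, in percent, for each library; the bars stack to 100%. MYH4 takes 7.98% in HA, 53.3% in MA and 72.2% and 73.7% in HA1 and MA1, while MYH7 stays between 5.04% and 8.40%.

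Of 19 fast fibre genes, all compared, 12 were higher in both suffix 1 libraries than in both others and 0 were lower, and PVALB was called with breed as a term (limma adjusted p = 5.45e-04). Their median difference was 0.75, against 0.011 over all genes, with 0.14 in Hampshire and 1.57 in Mali. All 19 were higher in MA1 than in MA, and 7 were lower in HA1 than in HA. The fast regulatory light chain MYLPF was at 22241 and 13313 FPKM in HA and MA and at 34755 and 52664 in HA1 and MA1, and TPM1, a tropomyosin, at 9713 and 5264 against 19831 and 30123. For both MA was the lowest library and MA1 the highest. The calcium pump of fast fibres, ATP2A1, was at 3043 and 3188 FPKM against 2443 and 4798, with overlap. The fast fibre median without 1 library ranged from 0.26 without MA to 1.20 without HA.

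Slow fibre genes split. Of 18 listed, 17 passed the filter, 3 were higher without overlap and 5 lower, and the median was 0.11, with -0.36 in Hampshire and 0.78 in Mali. This median turned negative when libraries were rescaled to a common FPKM sum (-0.085, or -0.33 without mitochondrial genes) and without MA (-0.39). MYL2, the slow regulatory light chain, was at 1190 and 842 FPKM in HA and MA and at 1679 and 1901 in HA1 and MA1. MYH7B, a slow-type heavy chain gene, was at 1.99 and 1.28 FPKM against 7.81 and 6.70. Both were higher in both suffix 1 libraries. The 5 lower ones were MYOZ2, PLN, LMOD2, CSRP3 and HSPB6. MYOZ2, a Z-disc protein that binds calcineurin, was at 171 and 136 FPKM against 67.0 and 31.4, and PLN, the inhibitor of the slow calcium pump, at 132 and 61.8 against 31.0 and 42.0. LMOD2, which elongates thin filaments, was at 84.0 and 143 FPKM against 32.4 and 52.1. The values of CSRP3 are given above. With breed as a term MYH7B (limma adjusted p = 0.00536) and CSRP3 (0.00104) were called.

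Of 20 core sarcomere genes 9 were higher without overlap and 3 lower, with a median of 0.25, and of -0.20 once libraries shared 1 FPKM sum without mitochondrial genes. By breed the core sarcomere median was 0.042 in Hampshire and 0.57 in Mali. Titin (TTN), the elastic spring of the sarcomere, was at 111 and 121 FPKM in HA and MA and at 171 and 232 in HA1 and MA1. MYBPC1, the slow-type myosin-binding protein C, was at 971 and 815 FPKM against 425 and 413. Titin was thus higher and MYBPC1 lower in both suffix 1 libraries. Of 15 calcium handling genes 7 were higher without overlap and 0 lower, with a median of 0.57. By breed this median was 0.074 in Hampshire and 1.01 in Mali. In HA1 6 of the 15 were lower than in HA, and in MA1 1 was lower than in MA. JPH2, which ties the calcium store to the surface membrane, was at 65.2 and 23.99 FPKM against 96.6 and 108.

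Mitochondrial genes went in opposite directions in the breeds. All but ND4L of the 13 protein genes of the mitochondrial genome were lower in HA1 than in HA, and all but ATP6 were higher in MA1 than in MA. The median was -1.47 in Hampshire and 0.74 in Mali, so the mean over breeds, with a median of -0.51, describes neither. CYTB, a subunit of complex III, was at 23047 FPKM in HA, 5420 in MA, 8036 in HA1 and 8351 in MA1. ND1, a subunit of complex I, was at 15979, 1536, 4095 and 2713, and COX1, of complex IV, at 40836, 12639, 17072 and 14383. For these genes HA was the highest and MA the lowest library, with both suffix 1 libraries between them. Summed over the 13 genes the libraries held 420449, 99995, 161309 and 153117 FPKM. Without ATP6 and ATP8, whose reading frames overlap, the sums were 292425, 76770, 115360 and 130655. The median was 0.60 without HA and between -1.46 and -0.42 without any other library.

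Nuclear genes of the respiratory chain, which supply the other subunits of the same complexes, went apart in the same way. Of 65 genes, all compared, 65 were higher in MA1 than in MA, and 50 were lower in HA1 than in HA. Their medians were -0.38 in Hampshire and 1.56 in Mali, with 0.61 for the mean over breeds. The 15 genes higher in both breeds also had both suffix 1 libraries above both others. Among them COX7A1, a muscle isoform of complex IV, was at 550.3 and 229 FPKM in HA and MA and at 924 and 1996 in HA1 and MA1. COX5B was at 445 and 234 FPKM against 659.97 and 1594, and NDUFS4, of complex I, at 275 and 102 against 412 and 567. In all of them MA was the lowest library and MA1 the highest, apart from NDUFA6, where HA was the lowest. Summed FPKM over the 65 genes were 19347 in HA, 9572 in MA, 16659 in HA1 and 33290 in MA1. COX7A1, COX5B and NDUFS4 each span more than 700 bp. The higher worth of short genes relative to longer ones in the suffix 1 libraries was measured for spans of 400 to 700 bp. It was measured on values under 5 FPKM. Its part in these higher values was not tested.

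**Figure D4:**
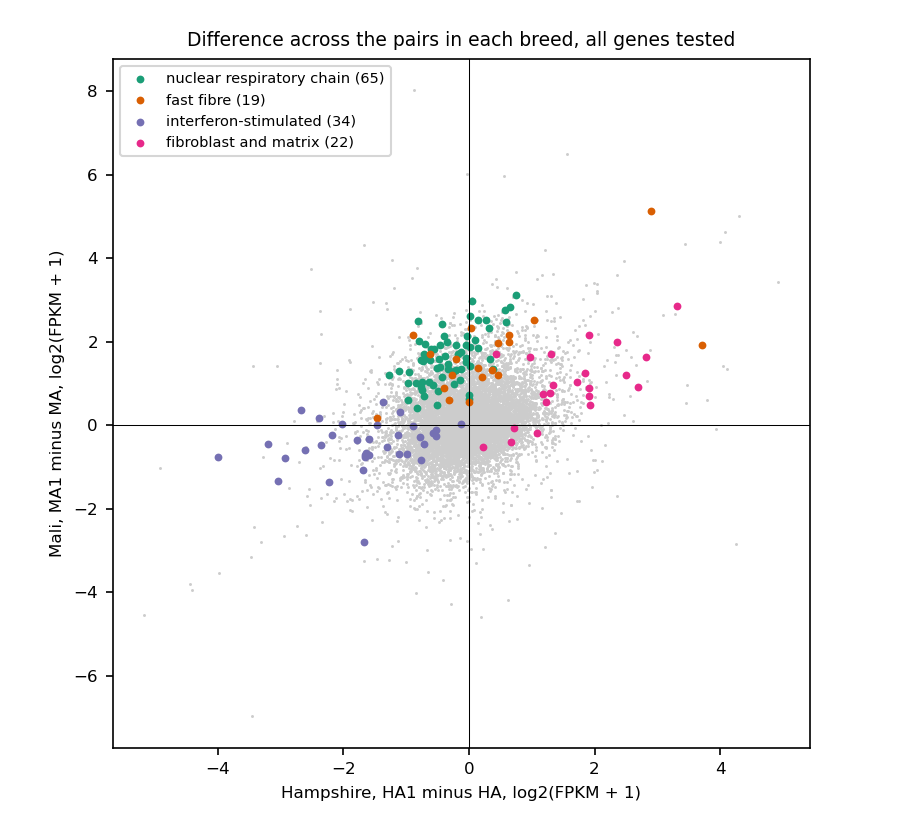
Difference of each of 10075 genes in Hampshire (HA1 minus HA, horizontal) and in Mali (MA1 minus MA, vertical), both in log2(FPKM + 1); grey points are all genes and coloured points 4 lists. Respiratory chain genes lie above the horizontal line with 50 of 65 to the left of the vertical one, interferon-stimulated genes lie to the left, and fibroblast and matrix genes to the right.

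Of 18 glycolysis genes 12 were higher in both suffix 1 libraries and 1, UGP2, was lower, with a median of 0.78 that stayed between 0.33 and 1.05 under every setting tried. By breed the glycolysis median was 0.22 in Hampshire and 1.22 in Mali. In HA1 5 of the 18 were lower than in HA, and in MA1 1 was lower than in MA. Phosphoglycerate mutase PGAM2 was at 3252 and 1604 FPKM in HA and MA and at 6949.97 and 7032 in HA1 and MA1. Triosephosphate isomerase (TPI1) was at 1670 and 866 FPKM against 2461 and 4892. Both suffix 1 libraries were the higher ones for these enzymes. Of 22 fatty acid oxidation genes 2 were higher and 7 lower, with a median of -0.29, and of -0.37 in Hampshire and 0.059 in Mali, where 11 were higher in MA1 than in MA. HADHB, of the mitochondrial trifunctional protein, was at 171 and 128 FPKM against 61.6 and 89.9, and the acyl-CoA dehydrogenase ACADVL at 86.9 and 93.3 against 44.6 and 54.0. FABP3, a fatty acid carrier of muscle, went the other way, from 141 and 77.9 FPKM to 169.6 and 241. Of 16 genes of the tricarboxylic acid cycle, 14 were lower in HA1 than in HA and higher in MA1 than in MA. PDK4, a kinase that shuts off pyruvate use in fasting, was at 5.89 FPKM in HA, 112 in MA, 129.9 in HA1 and 14.8 in MA1, with the breeds in opposite directions.

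Blood transcripts set MA apart from the other libraries. Haemoglobin beta (HBB) was at 2525 FPKM in HA, 87.1 in MA, 3708 in HA1 and 5469 in MA1, a difference of 0.55 in Hampshire and 5.96 in Mali. HBM, another globin gene, was at 25.6, 1.91, 58.8 and 34.0 FPKM. Both globins were highest in the suffix 1 libraries, with MA the low one. ALAS2, the haem synthesis enzyme of red cell precursors, was at 19.8, 0.842, 7.44 and 11.6 FPKM, and AHSP, a chaperone of alpha globin, at 13.4, 0.228, 2.89 and 7.49. These precursor genes were highest in HA, so the sides overlapped. Of 15 red blood cell markers in the table, 5 passed the filter, 3 were higher without overlap and 0 lower, and the median was 0.93, with 0.38 in Hampshire and 2.79 in Mali. The summed FPKM of the markers was 2618, 111, 3821 and 5582. HBM was called with breed as a term (limma adjusted p = 0.00605).

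Markers of platelets and white cells were counted in the same way. None of 9 platelet markers in the table passed the filter, and their summed FPKM was at most 3.45. Of 10 neutrophil markers 6 passed, with a sum of 17.1 FPKM in HA, 26.3 in MA, 34.5 in HA1 and 15.4 in MA1 and no gene whose sides did not overlap. Of 18 lymphocyte markers 5 passed, with sums of 16.2, 13.7, 16.4 and 5.90 FPKM. All 5 were lower in MA1 than in MA, and CD2 and CD3E were lower without overlap. Of 14 macrophage markers 11 passed, with sums of 79.7, 53.5, 138 and 42.2, and 2, TYROBP and CSF1R, were higher without overlap. HA1 was the highest and MA1 the lowest library in neutrophil, lymphocyte and macrophage sums.

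Stress genes did not move together. Immediate early genes, which are transcribed within minutes of a stimulus, lay mostly higher in the suffix 1 libraries. Of 27 listed, 23 passed the filter, 11 were higher without overlap and 0 lower, and the median was 0.48, with 0.56 in Hampshire and 0.53 in Mali. JUN, a subunit of the AP-1 factor, was at 22.0 and 24.7 FPKM in HA and MA and at 37.4 and 44.2 in HA1 and MA1. IER5 was at 1.98 and 1.94 FPKM against 20.2 and 5.13, and BTG2, an antiproliferative gene, at 5.07 and 9.30 against 66.0 and 13.9. HA1 was the highest library for IER5 and BTG2. FOS was at 2.59 and 1.19 FPKM against 3.14 and 2.67, and EGR1 at 1.44 and 0.572 against 1.64 and 1.31. With breed as a term IER5 and BTG2 were called (limma adjusted p = 0.00431 and 0.0299). The median ranged from 0.15 to 0.78 over the settings tried and was 0.26 without HA1.

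Heat shock genes lay mostly lower. Of 29 listed, 28 passed, 2 were higher without overlap and 9 lower, and the median was -0.48, with -0.44 in Hampshire and -0.14 in Mali. HSPH1, a co-chaperone of the HSP70 family, was at 7.85 and 13.7 FPKM in HA and MA and at 2.22 and 5.14 in HA1 and MA1. HSPA8, the constitutive HSP70, was at 702 and 523 FPKM against 229 and 473, and its partner DNAJA1 at 49.3 and 70.203 against 24.7 and 30.6. HA1 was the lowest library for these chaperones. DNAJB1, a co-chaperone induced by heat, was at 5.23 and 5.71 FPKM against 13.2 and 11.9 and so lay higher in both suffix 1 libraries. The inducible HSP70.2 was at 2.99 and 25.0 FPKM against 9.01 and 29.3, with both Mali libraries above both Hampshire ones. Without HA1 the median of the list was 0.067. HSPH1 was called as lower with breed as a term (limma adjusted p = 0.0470).

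Genes of oxidative and metal stress were lower in both suffix 1 libraries for 5 of 14 that passed, of 17 in the table, and higher for 0, with a median of -0.50. Thioredoxin (TXN), a disulphide reductase, was at 134 and 189 FPKM in HA and MA and at 76.4 and 38.0 in HA1 and MA1. Peroxiredoxin 1 (PRDX1) was at 52.1 and 48.2 FPKM against 16.4 and 31.7, and SRXN1, which repairs peroxiredoxins, at 2.84 and 7.92 against 0.656 and 2.65. All were lower within both breeds. Of 16 genes of endoplasmic reticulum stress that passed, 0 were higher without overlap and 5 lower, with a median of 0.011 over breeds, -0.26 in Hampshire and -0.0060 in Mali. Hypoxia genes had a median of 0.22 over 17, with 6 higher and 3 lower. The hypoxia median was -0.20 once libraries shared 1 FPKM sum without mitochondrial genes.

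Genes induced by glucocorticoids went both ways, with 2 of 15 higher without overlap and 4 lower. CEBPD, a transcription factor of acute stress, was at 29.0 FPKM in HA, 83.2 in MA, 15.7 in HA1 and 4.14 in MA1, and TSC22D3, an anti-inflammatory target of the hormone, at 48.3, 183, 34.4 and 35.7. For both MA was the highest library. PER1, which is also a clock gene, was at 6.47 and 10.5 FPKM against 13.7 and 23.1. Of 19 atrophy genes 1 was higher and 3 lower without overlap. They included BNIP3, a mitophagy receptor, at 180.04 and 469.5 FPKM against 91.8 and 166, and FOXO1 at 4.33 and 10.9 against 3.17 and 2.70. The ubiquitin ligase genes FBXO32 and TRIM63 overlapped.

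**Figure D5:**
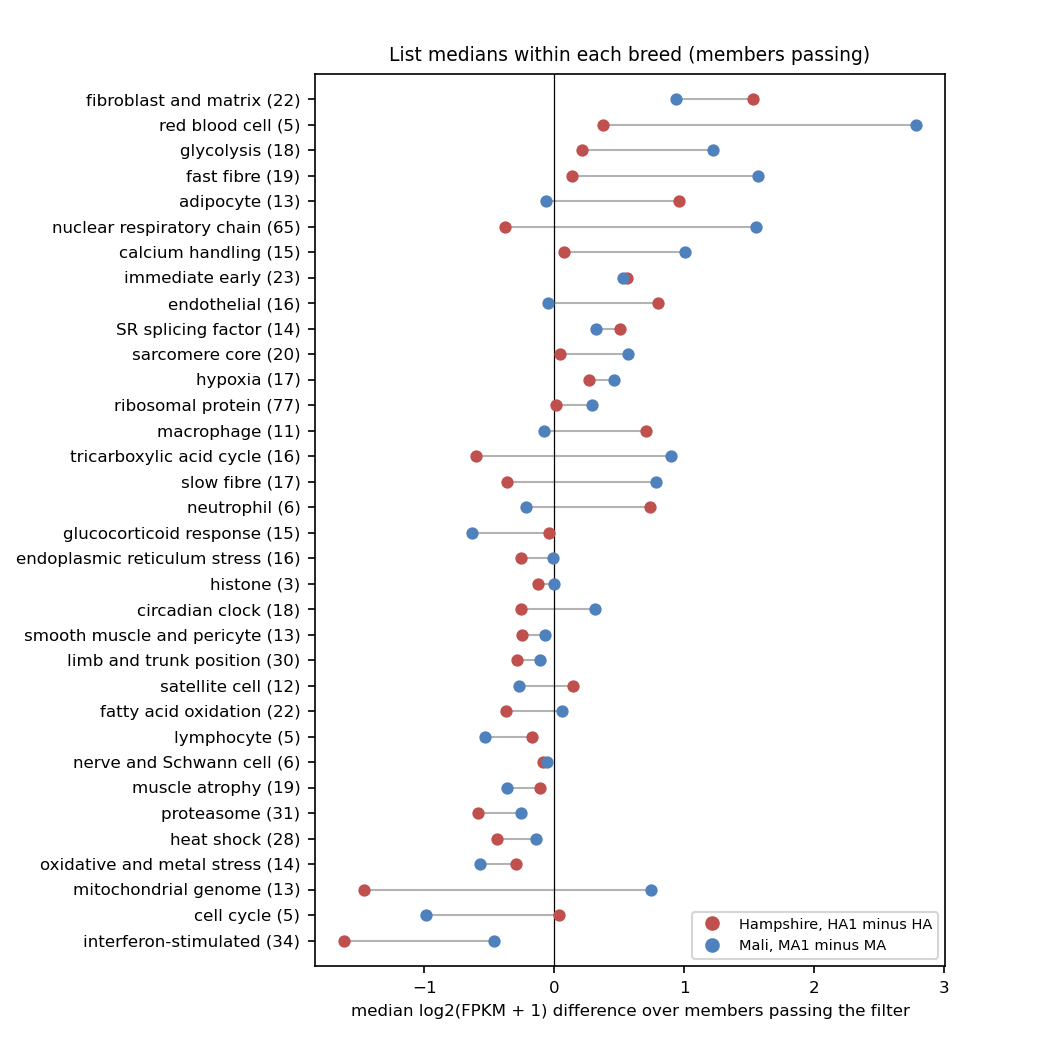
Median difference in log2(FPKM + 1) over the members that passed the filter, in each breed, for gene lists with at least 3 such members (their number in brackets); red points are HA1 minus HA and blue points MA1 minus MA. Fibroblast and matrix genes are above 0 in both breeds (1.53 and 0.94), interferon-stimulated genes below 0 in both (-1.62 and -0.46), and mitochondrial genome genes on opposite sides (-1.47 and 0.74).

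Connective tissue genes lay mostly higher in the suffix 1 library of each breed. Of 24 fibroblast and matrix genes in the table, 22 passed, all 22 were higher in HA1 than in HA and 18 were higher in MA1 than in MA, with medians of 1.53 and 0.94. In 7 of them both suffix 1 libraries lay above both others, and the remaining 15 overlapped. Fibrillin 1 (FBN1), of the microfibrils of elastic tissue, was at 1.69 and 1.06 FPKM in HA and MA and at 18.0 and 5.40 in HA1 and MA1, and MFAP5, which binds it, at 13.9 and 7.81 against 75.2 and 33.7. Periostin (POSTN), a matrix protein of remodelling tissue, was at 12.1 and 0.561 FPKM against 129.7 and 10.3. For each the suffix 1 library was higher within its breed. With breed as a term 5 of the 22 matrix genes were called as higher, FBN1, POSTN, COL5A1, FN1 and MFAP5, against 1.71% of all genes. The median was 0.33 without HA1 and 0.45 without MA.

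Among vessel markers the endothelial ones had their highest sum in HA1. Their summed FPKM was 85.6 in HA, 88.1 in MA, 165 in HA1 and 95.4 in MA1, and 7 of 16 that passed were higher without overlap and 1 lower. The endothelial median was 0.80 in Hampshire and -0.050 in Mali. CLDN5, a tight junction protein of endothelium, was at 4.28 and 6.30 FPKM against 24.9 and 10.3. EMCN, the 1 lower without overlap, was at 7.86 and 6.04 FPKM against 4.49 and 2.97, and 9 of the 16 were lower in MA1 than in MA. Adipocyte markers summed to 719.6 FPKM in HA, 639.8 in MA, 1315 in HA1 and 1701 in MA1, so that the sum was highest in MA1, and their median was 0.96 in Hampshire and -0.064 in Mali. GPD1, glycerol-3-phosphate dehydrogenase, made up most of the sum in MA1, at 524 and 282 FPKM in HA and MA and 844 and 1491 in HA1 and MA1. Adiponectin (ADIPOQ) was at 1.77 and 2.31 FPKM in HA and MA and at 45.0 and 7.84 in HA1 and MA1, and the lipid droplet coat PLIN1 at 0.792 and 0.6997 against 9.64 and 1.73. Of 13 adipocyte markers that passed, of 15 in the table, 5 were higher and 1, PLIN4, lower without overlap. PLIN4 was at 57.0 and 61.4 FPKM against 35.1 and 35.7. FABP4 was at 70.1 and 108 FPKM against 273 and 71.3, with overlap, and 7 of the 13 were lower in MA1 than in MA. With breed as a term 3 of the 13, ADIPOQ, PLIN1 and THRSP, were called as higher, against 1.71% of all genes. Of 13 smooth muscle and pericyte markers that passed, 1 was higher and 5 lower without overlap, with a median of -0.14 that was 0.12 without HA and 0.096 without MA1. Of 12 satellite cell markers that passed, 2 were higher and 4 lower, with a median of -0.21 that was 0.43 without MA1. The part of tissue content in the fibre and metabolic genes above was not tested.

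Interferon-stimulated genes had their highest values in HA. All 34 that passed, of 36 in the table, were lower in HA1 than in HA, and 27 were lower in MA1 than in MA. The medians were -1.62 and -0.46. Both suffix 1 libraries were below both others in 3 of them, IFI44L, DTX3L and IFI35, which is 8.82% against the 18.3% of all genes. ISG15, a ubiquitin-like antiviral protein, was at 284 FPKM in HA, 10.2 in MA, 16.8 in HA1 and 5.61 in MA1, and MX1, an antiviral GTPase, at 45.1, 2.39, 5.05 and 0.974. HA alone stood apart in these, and without it the median of the list was 0.081, against -2.05 to -0.54 without any other library. With breed as a term 9 of the 34 were called as lower, against 0.913% of all genes. ISG15 and MX1 were among the 9, though their sides overlapped.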

How the data were processed

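The authors deposited 1 table of FPKM per gene and library, and the submitters' processing notes name HISAT2, Picard, Cuffdiff and Bowtie 0.12.2 without saying what each did. Per the labels' protocols, Trizol was used for RNA and a TruSeq kit for the libraries. The strand setting and genome build are not stated there; 99.963% of gene IDs had the start and end of the Sscrofa11.1 RefSeq table, whose coordinates are given. FPKM holds no depth, and very abundant transcripts in a library lower the values of its other genes.

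Of 30213 rows, 1 had no gene name and was dropped, 26 symbols stored as dates were replaced by the name in the gene ID, and rows of 1 symbol were summed. A gene was kept if 2 or more libraries had 1 FPKM or more; EN1, with a second-highest value of 1.02 FPKM, was just inside and DHX58, with 0.997, just outside. The test on log2(FPKM + 1) was limma 3.58.1, run in R 4.3.3 (mean-variance trend, two-sided, Benjamini-Hochberg threshold 0.05), without a breed term; it had 2 residual degrees of freedom and a prior of 5.59. The script was tested on simulated data. The split, the gene lists and the rule for named genes were chosen with earlier results of these data known, and the lists of position, cold-inducible, SR splicing and clock genes after the values here were seen. The rule named, per direction, 10 genes with a proper symbol, at least 5 FPKM on the higher side and no overlap, by the smaller within-breed difference, up to 4 members per list and a set of fixed genes; other named members were chosen after their values were seen. The alternatives were other pseudocounts, filters, scalings and limma settings, each library left out, 1 row per symbol by highest mean, breed as a block, and the mitochondrial genome without its overlapping ATP genes. HA and MA were numbered replicate 1 and HA1 and MA1 replicate 2 of their breed, a numbering that gives the suffix no meaning. Figures were drawn with matplotlib 3.10.9.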

Additional observations from a re-analysis of the deposited data

Results flagged for a closer look

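In 4 gene lists the medians of the breeds had opposite signs and both were over 0.3 in size. The difference between the breeds was not tested, since each breed has 1 library a side. Slow fibre genes had a median of -0.36 (HA1 minus HA) in Hampshire and 0.78 (MA1 minus MA) in Mali. Genes of the mitochondrial genome had -1.47 and 0.74, nuclear respiratory chain genes -0.38 and 1.56, and tricarboxylic acid cycle genes -0.60 and 0.90. Mitochondrial genome genes held 42.5% of all FPKM in HA, and MA had the lowest FPKM sum (516463). Fatty acid oxidation, neutrophil, macrophage, endothelial, adipocyte, satellite cell, cell cycle and circadian clock genes also had medians of opposite sign, with a smaller size in 1 or both breeds. The part of either library in these opposite medians was not tested.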

How the results depend on the processing

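The count of 12 called genes depended on the setting, and 2 libraries a side limit every statement. With the replicate block by breed it was 264, and with size factors added to that block 49 (28 higher, 21 lower). It was 45 after rescaling to a common sum (24 higher, 21 lower), 84 when that sum left out mitochondrial genes (28 higher, 56 lower), 4 with size factors and 6 with quantile normalization. It was 0 with a pseudocount of 5 (740 at an unadjusted limma p under 0.05), 0 with no filter (1422) and 0 with no mean-variance trend (769). Leaving out 1 library gave 0 to 57. Rescaling to a common sum moved the median of all genes from 0.011 to -0.16, and to -0.34 without mitochondrial genes, so list medians under these settings are to be read against those values.

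Genes with both suffix 1 libraries higher numbered 1969, and 4396 with no filter, 940 for a mean FPKM of 5 or more, 980 and 724 after these rescalings and 3207 to 4174 without 1 library, where 3 libraries leave more genes apart. Genes with both lower numbered 1847, and 1077 for a mean FPKM of 5 or more, 3715 after rescaling without mitochondrial genes and 2942 to 4097 without 1 library. The immediate early median of 0.48 was 0.62 and 0.21 with pseudocounts of 0.1 and 5, 0.33 with no filter, 0.78 for a mean FPKM of 5 or more, 0.34 and 0.15 after these rescalings and 0.26 to 0.60 without 1 library. The heat shock median of -0.48 was -0.90 after rescaling without mitochondrial genes and -0.87 to 0.067 without 1 library. The cause was not tested. Of 416 list medians under these settings 43 had the other sign, in 18 of 32 lists.

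Breed is known from the labels, and the within-breed differences correlated across genes, which are not independent, with r = 0.275. The breed block kept all 12 calls.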

Other observations

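Splicing and cold-inducible genes, in lists drawn up after SRSF5 was seen, lay mostly higher in the suffix 1 libraries. Of 14 SR splicing factor and CLK kinase genes that passed the filter, 7 were higher without overlap and 2 lower, with a median of 0.28 (0.51 in Hampshire and 0.32 in Mali). SRSF2 was at 17.2 and 20.0 FPKM in HA and MA and at 48.2 and 75.3 in HA1 and MA1, and SRSF1 at 12.4 and 10.3 against 30.1 and 27.2. The cold-inducible RNA-binding proteins CIRBP and RBM3 were at 17.6 and 42.6 FPKM and at 20.3 and 67.3 without the suffix, against 68.0 and 143 and 70.8 and 154 with it. In both the suffix 1 library was higher within its breed, and the lists were chosen for such values.

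Of 18 circadian clock genes 3 were higher without overlap, PER1, PER2 and PER3, and 5 were lower, among them NR1D1, at 8.85 and 9.79 against 5.46 and 6.40. PER3 was at 0.904 and 0.441 FPKM against 2.77 and 2.68, and was called with breed as a term (limma adjusted p = 0.0386). The labels give no time of sampling.

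Of 77 ribosomal protein genes 32 were higher without overlap and 17 lower, with a median of 0.22 that was -0.22 with quantile normalization and -0.23 after rescaling to a common sum without mitochondrial genes. Ribosomal protein genes have many near-identical copies, so their values are uncertain. Of 31 proteasome genes 0 were higher and 3 lower without overlap, PSMA1, PSMA2 and PSMA6, with a median of -0.43 that was 0.11 without HA1 and 0.020 without MA. Cell cycle genes had a median of -0.53 over 5 genes, nerve and Schwann cell genes -0.35 over 6, histone genes -0.022 over 3 and skin genes 0.94 over 2.

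By gene span, the median difference was 0.090 in the shortest decile of genes (204 to 4385 bp), with -0.080 in Hampshire and 0.27 in Mali, and 0.095 in the longest. In the shortest decile 23.6% of genes were higher without overlap and 16.1% lower.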
